A study of Mus musculus with 16 samples.

Results

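The set described here comprises 51 genes of B cell identity and signalling, taken by name from a list of surface, receptor signalling and transcription factor genes. It is 51 of the 21631 protein-coding genes that the RefSeq annotation of GRCm38 places on chromosomes 1 to 19 and X, and all 51 names were found there. H3K27me3, the trimethylation of lysine 27 on histone H3, had been mapped by chromatin immunoprecipitation and sequencing in B cells isolated from mouse spleen with CD43 microbeads. The C57BL/6 mice were 6 to 8 weeks old and were either wild type (WT) or Ifih1/Rigi/cGAS triple mutants, here called mutant, which carry mutations in genes for cytosolic sensors of RNA and DNA. Cells of both genotypes were cultured for 48 hours with 2 ng/mL of BAFF, a B cell survival factor, and 2 ng/mL of IL-4, a cytokine that acts on B cells, so that all groups shared this stimulation. They received either DMSO, the solvent, or 1 µM of GSK343, an inhibitor of the methyltransferase EZH2. Each combination of genotype and treatment had 2 ChIP and 2 input samples, but its values come from 1 deposited list of broad peaks. No list has a replicate, so a difference between lists could not be set against a spread between replicates and has no test.

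H3K27me3 is written by Polycomb repressive complex 2, whose catalytic subunit is EZH2 or EZH1, and lies mostly over genes that a cell does not transcribe. Mature B cells depend on a surface antigen receptor with the signalling chains Cd79a and Cd79b, on kinases and adaptors that relay its signal, and on transcription factors that keep the lineage's genes active. Rag1, Rag2, Vpreb1 and Igll1 belong to an earlier stage: they rearrange the antigen receptor genes or form the surrogate light chain in the bone marrow, and are normally switched off in mature B cells. The lists hold peak positions and no RNA, so a gene without a peak is one where none was listed, which does not show that the gene was expressed.

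For each gene the share of bases covered by peaks was measured over a window of the gene body plus 5 kb on each side. Most of the set carried no peak: 37 of the 51 genes had none in any of the 4 lists. In WT DMSO, 11 of 51 genes (21.6%) had a peak in the window, against 43.5% of all protein-coding genes. In WT GSK343 the count was 4 (7.84%), against 26.3% of all genes. In mutant DMSO it was 12 (23.5%), against 48.9%, and in mutant GSK343 it was 3 (5.88%), against 24.4%. Long genes have more bases that can meet a peak, so each gene was also compared with its 200 nearest protein-coding genes by length. At the rates of those genes the DMSO counts would have been 23.3 in WT and 26.2 in mutant cells, and the GSK343 counts 14.4 and 13.2. The counts in the set were thus lower than both references in all 4 lists. A peak within the gene body itself was rarer: 7 genes had one under DMSO in either genotype, and 3 in WT and 2 in mutant cells under GSK343. Of all genes, 31.8% (WT) and 34.6% (mutant) had a peak in the body under DMSO, and 21.4% and 20.3% under GSK343.

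The median covered share was 0% in the set and 0% over all protein-coding genes in each list, because more genes lacked a peak than had one. Over the summed windows, peaks covered 2.30% of the set in WT DMSO and 2.75% in mutant DMSO, against 4.86% and 7.05% for all protein-coding genes and 5.95% and 8.60% for the genes of like length. Under GSK343 the set had 0.385% in WT and 0.283% in the mutant, against 1.56% and 1.30% for all genes and 1.86% and 1.54% for those of like length. A single gene, Pou2f2, supplied 66.0% of the set's covered bases in WT DMSO. Without it the DMSO shares were 0.814% in WT and 1.16% in mutant cells, and the GSK343 shares 0.144% and 0.0357%.

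**Figure D1:**
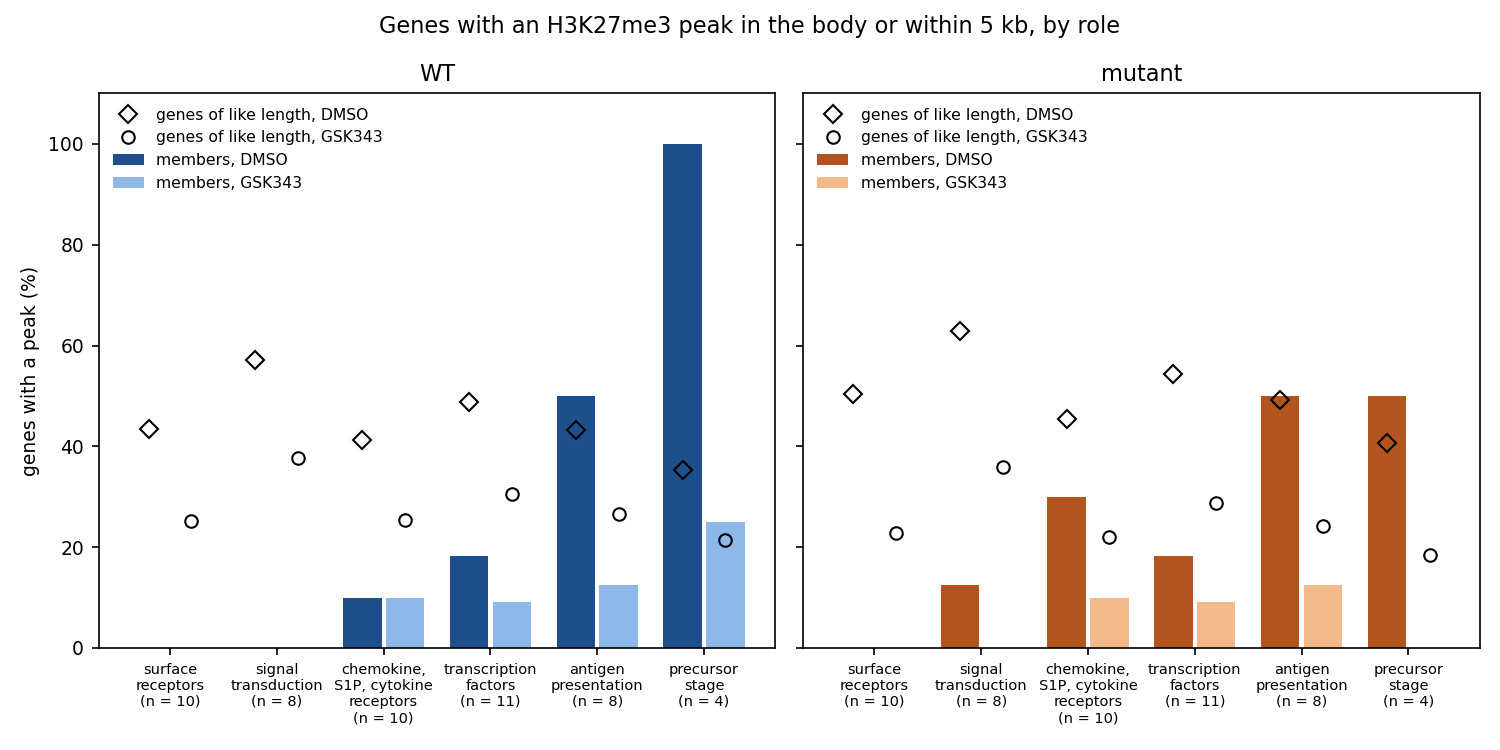
Bars give the percent of the 51 genes, in 6 groups by role, with a peak in the gene body or within 5 kb, and open symbols give the mean percent among the 200 protein-coding genes nearest in length to each. None of the 10 genes grouped as surface coreceptors and receptor complex had a peak, though receptors in other groups did. In WT DMSO the 4 precursor-stage genes all had one, with 1 peak of 238 bp counted for both Vpreb1 and Igll1. In mutant DMSO 2 of the 4 had a peak.

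Promoters of 6 genes are shown to let the reader see the sequence at sites with and without a peak. The tabled start sites of Rag1 and Rag2 lay inside DMSO peaks, and those of S1pr2 and Pou2f2 lay near but outside them. Spib and Cd79a were 42.8 kb and 19.5 kb from the nearest WT DMSO peak. Each promoter runs 5′ to 3′ on the gene's own strand, from 250 bases before to 50 bases after the start site, and is taken from RefSeq (GRCm38.p6). Capitals mark CG dinucleotides, the sites of DNA methylation, which are dense in the CpG islands where Polycomb often binds. The positions are chr2:101649483-101649782 (minus strand) for Rag1, chr2:101624462-101624761 (plus) for Rag2, chr9:20976744-20977043 (minus) for S1pr2, chr7:25132411-25132710 (minus) for Pou2f2, chr7:44532022-44532321 (minus) for Spib and chr7:24897247-24897546 (plus) for Cd79a.
Rag1: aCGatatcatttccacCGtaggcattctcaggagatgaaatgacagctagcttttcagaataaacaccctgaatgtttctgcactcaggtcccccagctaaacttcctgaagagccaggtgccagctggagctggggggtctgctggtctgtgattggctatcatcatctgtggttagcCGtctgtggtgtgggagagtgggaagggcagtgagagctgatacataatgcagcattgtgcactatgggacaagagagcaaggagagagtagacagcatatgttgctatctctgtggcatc
Rag2: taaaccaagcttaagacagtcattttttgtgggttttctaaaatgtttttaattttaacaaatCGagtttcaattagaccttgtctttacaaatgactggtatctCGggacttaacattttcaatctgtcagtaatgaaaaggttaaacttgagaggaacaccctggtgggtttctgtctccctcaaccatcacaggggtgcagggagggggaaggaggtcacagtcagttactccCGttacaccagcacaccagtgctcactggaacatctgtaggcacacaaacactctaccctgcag
S1pr2: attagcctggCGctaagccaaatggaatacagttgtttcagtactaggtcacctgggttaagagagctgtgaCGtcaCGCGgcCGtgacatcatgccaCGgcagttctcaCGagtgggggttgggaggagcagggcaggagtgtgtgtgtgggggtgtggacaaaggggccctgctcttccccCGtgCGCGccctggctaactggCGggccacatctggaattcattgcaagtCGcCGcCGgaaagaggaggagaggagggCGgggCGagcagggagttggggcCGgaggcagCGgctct
Pou2f2: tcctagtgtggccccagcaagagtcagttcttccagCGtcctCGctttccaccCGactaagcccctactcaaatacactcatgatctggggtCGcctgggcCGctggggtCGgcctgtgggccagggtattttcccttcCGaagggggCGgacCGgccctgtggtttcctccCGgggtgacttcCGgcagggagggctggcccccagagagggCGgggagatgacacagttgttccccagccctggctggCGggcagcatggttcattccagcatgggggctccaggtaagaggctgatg
Spib: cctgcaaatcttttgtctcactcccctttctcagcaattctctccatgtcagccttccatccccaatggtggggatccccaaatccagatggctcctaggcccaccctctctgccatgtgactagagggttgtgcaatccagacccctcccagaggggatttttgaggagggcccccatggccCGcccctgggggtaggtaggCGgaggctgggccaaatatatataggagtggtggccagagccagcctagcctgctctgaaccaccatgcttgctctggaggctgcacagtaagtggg
Cd79a: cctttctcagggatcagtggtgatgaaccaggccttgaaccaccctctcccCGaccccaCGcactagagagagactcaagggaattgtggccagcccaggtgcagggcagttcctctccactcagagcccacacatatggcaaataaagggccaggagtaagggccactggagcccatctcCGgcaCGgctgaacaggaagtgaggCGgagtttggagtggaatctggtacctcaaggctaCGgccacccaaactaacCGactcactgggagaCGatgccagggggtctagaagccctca

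The table of promoters matched 35 of the 51 genes, with 46 start sites among them. The promoters of Rag1 and Rag2 held 3 CG dinucleotides each, that of S1pr2 held 18 and that of Pou2f2 held 13. Spib, 42.8 kb from the nearest WT DMSO peak, held 2, and Cd79a held 8. Of the promoters shown, those with the tabled start site inside a peak were thus CG-poor, and the CG-rich ones lay outside peaks. Pou2f2 has only 1 tabled start site, within the gene. The 5′ end of its annotated body lay inside a DMSO peak in both genotypes, and its promoter sequence is not among those shown. The median over the set's 46 promoters was 7, against 13 over the 21045 promoters of protein-coding genes and 17 over those whose start site lay in a WT DMSO peak. The octamer ATGCAAAT, the motif recognised by the protein of Pou2f2, was sought on both strands and occurred in 3 of the set's 46 promoters (those of Il4ra, Blnk and Ccr6), or 6.52%, against 1.68% of all promoters. Tabled start sites were seldom inside a peak. In WT DMSO and in mutant DMSO this was so for Rag1 and Rag2 alone, 2 of 35 genes, against 20.1% and 22.1% of the genes in the table. In WT GSK343 it was so for Rag2 (13.7% of the table's genes), and in mutant GSK343 for none of the 35 (12.7%).

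The 10 genes grouped as surface coreceptors and receptor complex carried no peak in any list. They are Cd79a and Cd79b, the signalling chains of the antigen receptor, Ms4a1, which encodes CD20, the inhibitory coreceptors Cd22, Cd72 and Fcgr2b, the tetraspanin Cd37, the complement receptor Cr2, the low-affinity IgE receptor Fcer2a and the phosphatase Ptprc, which encodes CD45. Genes of like length would have given 4.35 genes with a peak in WT DMSO and 5.03 in mutant DMSO. Ptprc, 113 kb long (chromosome 1, 138062859 to 138175756), lay 240 kb from the nearest WT DMSO peak, the longest such distance in the set. In mutant DMSO its nearest peak was 75.4 kb away. Other receptors of the cell surface were placed in other groups, and of these Cd40 and S1pr2 had a peak in every list.

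The 8 genes that carry the signal inside the cell were also nearly free of peaks. Blk, Lyn and Syk are kinases near the receptor, Blnk and Bank1 are adaptors, Plcg2 is the phospholipase, Pik3cd a catalytic subunit of PI3 kinase and Pik3ap1 its adaptor. None had a peak in WT DMSO, WT GSK343 or mutant GSK343, although the rates of genes of like length would have given 4.57, 3.02 and 2.88. In mutant DMSO Syk alone had 1, a 4.80 kb peak of fold 2.86 that began 4.20 kb past its end and covered 1.05% of the window. In WT DMSO the nearest peak to Syk was 5.92 kb away, just beyond the window. The fold is the authors' own ratio of ChIP over background for each peak. Bank1, the longest gene of the set at 273 kb, had no peak within 225 kb in either DMSO list.

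Among the 11 transcription factors and coactivators, 9 had no peak in any list. These were Ikzf1 and Ikzf3 of the Ikaros family, Spib, the octamer coactivator Pou2af1, Irf8, Mef2c and the NF-κB subunits Nfkb1, Rel and Relb. Their distance to the nearest WT DMSO peak ran from 24.5 kb for Ikzf3 to 232 kb for Rel. The exceptions were Pou2f2 and Stat6.

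Pou2f2, which encodes the octamer-binding factor Oct-2, was the most covered gene in kilobases (chromosome 7, 25087350 to 25180797). Under DMSO peaks covered 39.5% of its window in WT and 42.5% in mutant cells, and under GSK343 6.40% and 6.46%. Both DMSO values were thus far above both GSK343 values, and the genotypes lay close together. Genes of like length had a mean of 4.76% in WT DMSO. The cover was confined to one part of the gene in all 4 lists. It ran from 25134557 to 25181480 in WT DMSO, as 5 peaks with folds of 2.73 to 3.75, and reached past the high-coordinate end of the gene. In mutant DMSO 3 peaks ran from 25133773 to 25181515. The tabled start site, at 25132460 on the minus strand, was 2096 bp from the nearest peak in WT DMSO and 1312 bp in mutant DMSO, so the covered part lay upstream of it, over the first stretch of the annotated locus, and the part downstream of it had no peak. Under GSK343 the same stretch held 4 separate peaks in WT and 7 in mutant cells, the widest 4.06 kb and 3.22 kb long. Both overlapped D930028M14Rik, a non-coding gene within the locus, whose start site lay inside a DMSO peak in both genotypes.

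Stat6, the transcription factor activated by IL-4, had peaks outside the gene only. They covered 6.84% of the window in WT DMSO and 7.31% in mutant DMSO, and none was listed under GSK343 in either genotype. The closest lay 1775 bp below the gene in WT DMSO and 2096 bp below it in mutant DMSO, overlapping the non-coding gene Gm40802. Their folds were 2.45 to 2.91.

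**Figure D2:**
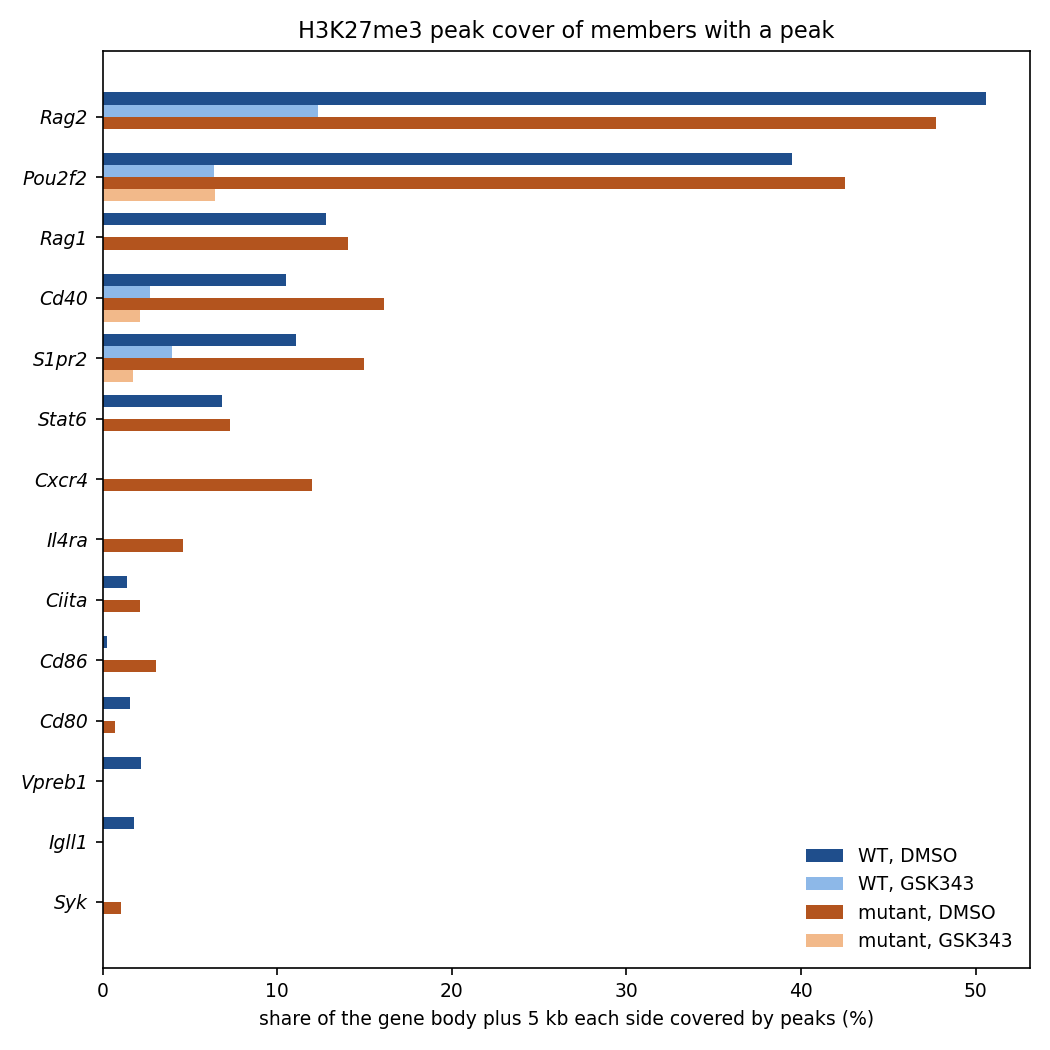
Bars give the share of the gene body plus 5 kb each side that peaks covered in each of the 4 lists, for the 14 genes of the set with a peak in at least 1 list. Rag2 and Pou2f2 stand above the other 12 under DMSO, and the GSK343 bars are the shorter ones throughout.

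The 4 precursor-stage genes were the group with the greatest share of genes marked in the WT lists, and in mutant DMSO they tied with antigen presentation. All 4 had a peak in WT DMSO and 2 had one in mutant DMSO, where genes of like length would have given 1.41 and 1.63. Outside this group, 7 of 47 genes had a peak in WT DMSO and 10 of 47 in mutant DMSO, against 21.9 and 24.5 at the rates of genes of like length. Rag1 and Rag2, which encode the 2 parts of the recombinase, are neighbours on chromosome 2, and their windows overlap. The Rag2 window (gene at 101624712 to 101632528) was 50.6% covered in WT and 47.7% in mutant cells under DMSO, and 12.3% and 0% under GSK343. Rag2 had the highest DMSO share of the set, and the mutant GSK343 list alone had no peak there. A peak of 20.2 kb (WT) or 19.3 kb (mutant), with folds of 3.06 and 3.30, spanned the start of Rag2 and ended within the gene. It also held a start site of Iftap, a gene that overlaps Rag2. In WT GSK343 a 1.11 kb peak of fold 3.04 still covered the start site of Rag2.

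For Rag1 (101638252 to 101649532) the share was 12.8% in WT and 14.0% in mutant cells given DMSO, and 0% under GSK343 in both genotypes. A peak of 1.14 kb in WT and 1.10 kb in mutant cells lay over its start site, and another lay over 2 kb upstream. Their folds of 2.31 to 2.73 were lower than those of the wide peak at Rag2. Vpreb1 and Igll1, which encode the surrogate light chain, shared 1 peak. It was 238 bp wide, lay within Igll1 at 105 bp from its start site and was listed in WT DMSO only. Its fold of 2.18 was close to the lowest in that list, where 0.162% of peaks had a lower one, and with a q-value of at most 0.01 only Rag1 and Rag2 of the 4 genes kept a peak.

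Of the 8 genes of antigen presentation and costimulation, 4 had a peak under DMSO in each genotype (Cd40, Cd80, Cd86 and Ciita), against 3.46 (WT) and 3.94 (mutant) at the rates of genes of like length. By count, with every listed peak included, this group was thus not below its reference under DMSO. By covered share it was: peaks covered 1.44% of its summed windows in WT DMSO and 2.85% in mutant DMSO, against 7.01% and 9.88% for genes of like length, and the windows of Cd80, Cd86 and Ciita were at most 3.07% covered. With a q-value of at most 0.01, only Cd40 and Cd86 of the 8 kept a peak under DMSO, in both genotypes. At that limit 33.7% (WT) and 40.3% (mutant) of all genes had one, and genes of like length were not recounted. Under GSK343 Cd40 alone had a peak. H2-Aa and H2-Ab1, chains of MHC class II, Cd74, its invariant chain, and Cd83 had no peak in any list. The nearest WT DMSO peak was 103 kb from H2-Aa and 121 kb from H2-Ab1, which are neighbours. Ciita, the transactivator of MHC class II, which is known to use several promoters in different cell types, had 1 small peak near its low-coordinate end. It covered 1.38% of the window in WT DMSO and 2.16% in mutant DMSO, with folds of 2.43 and 2.25, and was not listed under GSK343.

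Cd40, the receptor for T cell help (chromosome 2, 165055614 to 165071654), had no peak in its body but was flanked on both sides. Under DMSO its window was 10.5% covered in WT and 16.1% in mutant cells, and under GSK343 2.70% and 2.16%. The body itself was 0% covered in all 4 lists. In WT DMSO a 13.4 kb peak ended 3607 bp below the gene and a 7.49 kb peak began 3657 bp above it. Only the latter kept a counterpart that reached the window under GSK343. It was 6.50 kb wide in WT and 5.56 kb in mutant cells, overlapping the non-coding gene 1700025C18Rik. Of the 13.4 kb peak only 1393 bp lay in the window, and whether the rest had a counterpart under GSK343 was not tested. Of the 2 ligands of CD28, Cd80 had 1 intragenic peak, covering 1.58% in WT DMSO and 0.692% in mutant DMSO, with folds of 2.28 and 2.14. It lay 23838 bp (WT) and 24324 bp (mutant) from the tabled start site of Cd80. In both lists it overlapped Ck-ps3, and in WT DMSO it held the start site of Gm41453, neither of them a protein-coding gene. For Cd86 the covered share was 0.256% in WT and 3.07% in mutant cells. All of the WT value and most of the mutant value came from a peak that held the start site of Casr, the neighbouring gene of the calcium-sensing receptor, and reached 3070 bp into the Cd86 window in the mutant list. The rest was a 226 bp peak within Cd86. Neither Cd80 nor Cd86 had a peak in its window under GSK343.

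Among the 10 chemokine, sphingosine and cytokine receptors, 7 had no peak in any list. These were Cxcr5, Ccr7 and Ccr6, which guide B cells within lymphoid tissue, S1pr1, which directs egress, the BAFF receptors Tnfrsf13b and Tnfrsf13c, and Il21r. S1pr2, which holds B cells in germinal centres (chromosome 9, 20965952 to 20976793), was the exception in all 4 lists. Under DMSO the covered share was 11.1% in WT and 15.0% in mutant cells, and under GSK343 4.01% and 1.73%. The main peak lay in the gene near its start and was 2.07 kb (WT) and 2.67 kb (mutant) wide under DMSO, against 0.835 kb and 0.36 kb under GSK343. It stopped 658 bp and 193 bp short of the start site under DMSO, and 636 bp and 1043 bp short under GSK343. S1pr1 and S1pr2, related receptors of 1 ligand, thus differed: S1pr1 lay 59.4 kb from the nearest WT DMSO peak. Cxcr4 and Il4ra, the IL-4 receptor chain, had flanking peaks in the window in mutant DMSO only. These covered 12.0% and 4.63% of their windows, and the folds at Cxcr4 were 2.36 and 2.37. The nearest WT DMSO peak lay 5.38 kb from Cxcr4 and 117 kb from Il4ra.

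**Figure D3:**
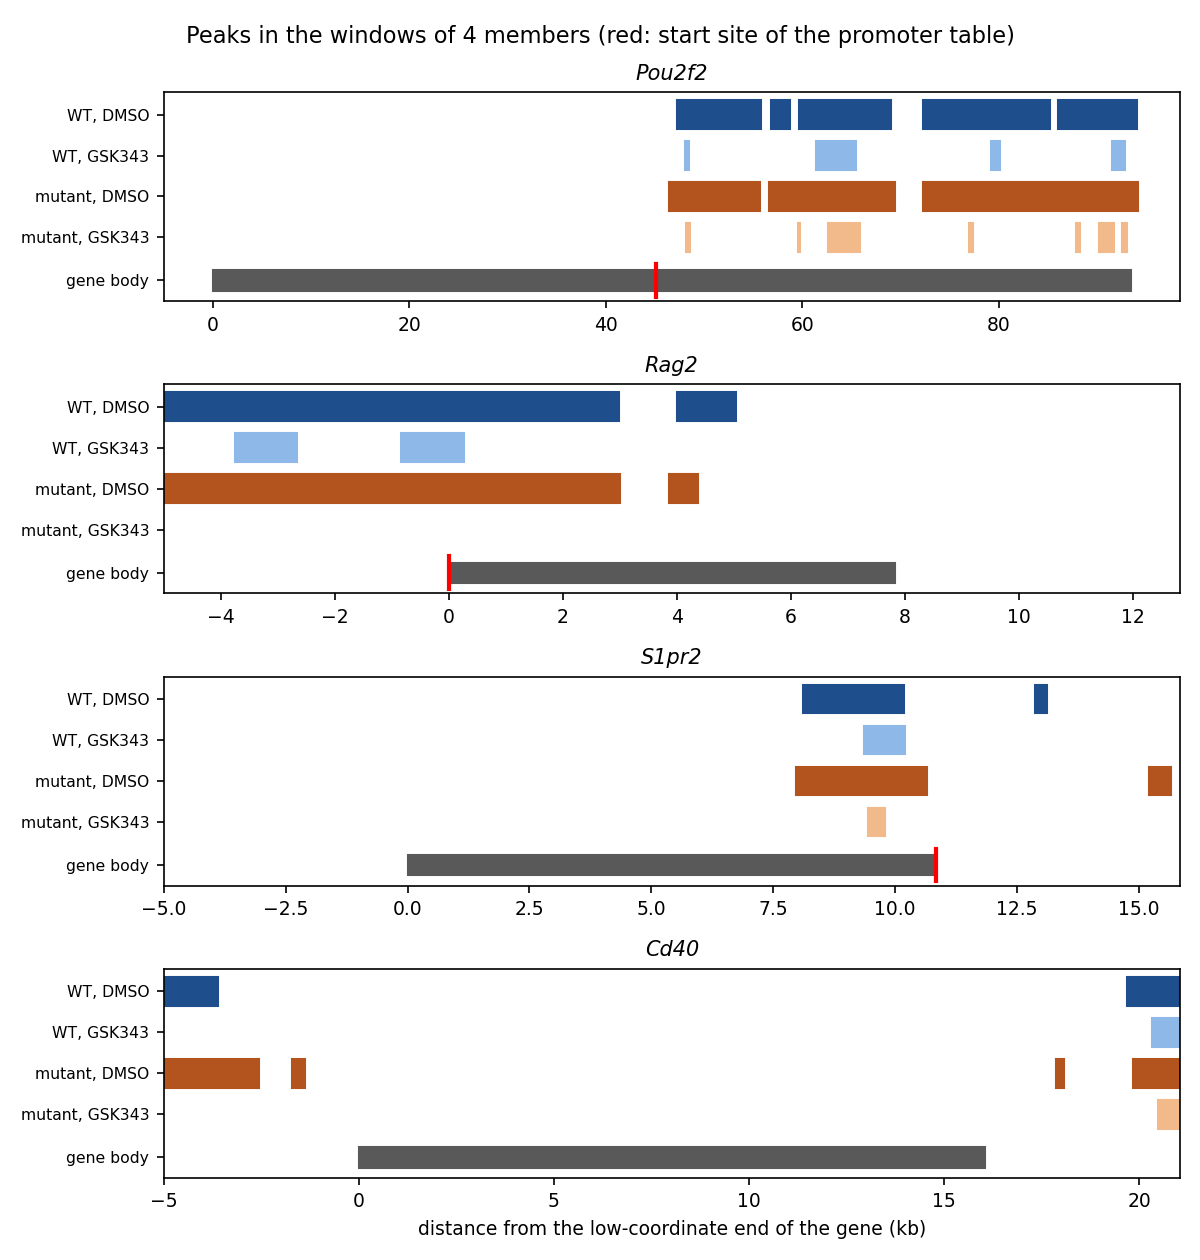
Peaks of the 4 lists in the windows of Pou2f2, Rag2, S1pr2 and Cd40, by distance in kb from the low-coordinate end of each gene. Grey bars are gene bodies and red ticks the tabled start sites (none tabled for Cd40); the Pou2f2 peaks fill the part of the gene beyond the red tick, and those of Cd40 lie outside the gene.

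Under the EZH2 inhibitor every gene of the set that had a peak under DMSO had fewer covered bases, 11 of 11 in WT and 12 of 12 in mutant cells, and no gene gained a peak. This was the case for 99.3% (WT) and 99.9% (mutant) of all genes with a peak under DMSO. In WT cells 7 of the 11 genes had no peak left in the window, against 39.9% of all genes with a peak under WT DMSO. In mutant cells 9 of the 12 had none left there, against 50.4%. Some still had a GSK343 peak just beyond the window: Cd86 in WT (6.75 kb), and Syk (5.77 kb), Rag2 (6.225 kb) and Cd86 (6.75 kb) in mutant cells. For the other genes without a peak left, the nearest was at least 13.3 kb away in WT and 19.8 kb in mutant cells. The genes that kept a peak in the window were Cd40, Pou2f2 and S1pr2 in both genotypes, and Rag2 in WT cells. Covered length over the set was 61.9 kb in WT DMSO and 10.4 kb in WT GSK343, a ratio of 0.167. It was 74.0 kb in mutant DMSO and 7.61 kb in mutant GSK343, a ratio of 0.103. Over all protein-coding genes the ratios were 0.321 and 0.184. Without Pou2f2 the set's ratios were 0.177 and 0.0307, so Pou2f2 decided the mutant value. At Pou2f2 covered length was 83.8% lower under GSK343 in WT and 84.8% lower in mutant cells. At S1pr2 it was 63.8% and 88.5% lower, and at Cd40 74.3% and 86.6% lower.

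Between genotypes under DMSO, 9 genes had a peak in both lists, Vpreb1 and Igll1 in WT only, and Cxcr4, Il4ra and Syk in the mutant only. Of these 14 genes, 10 had more covered bases in the mutant, against 85.6% of all genes with a peak in either list. Covered length over the set was 1.20 times the WT value in the mutant, against 1.45 times over all protein-coding genes. With equal numbers of peaks from each list, the 10847 of smallest p-value, 7 genes had a peak in WT DMSO and 6 in mutant DMSO, against 30.7% and 33.6% of all genes, so the higher mutant count was not kept. Under GSK343 4 (WT) and 3 (mutant) genes had one, against 25.5% and 24.4% of all genes. The nearest WT DMSO peak lay just beyond the window for Cxcr4 (5.38 kb) and Syk (5.92 kb), and 117 kb from Il4ra. For Cxcr4 and Syk the mutant-only status thus rested on the 5 kb limit. Whether the mutant peaks at Cxcr4, Il4ra and Syk differ from WT beyond the greater length of that list was not tested. Under GSK343, 1 of the 4 genes with a peak in either list (Pou2f2) had more covered bases in the mutant, against 34.1%. The set's ratio was 0.735 there and 0.832 over all genes. Without Pou2f2 it was 0.247, and with peaks of a −log10 p-value of 5 or more it was 1.60, so its direction was not stable.

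The lists differed in size. The DMSO lists held 39495 (WT) and 49803 (mutant) peaks over 84.3 and 134 Mb, and the GSK343 lists 11903 and 10847 peaks over 21.1 and 17.0 Mb. They also differed in the p-value given to a peak of like fold: with a fold of 2.9 to 3.1 the median −log10 p-value was 5.45 (WT) and 6.12 (mutant) under DMSO, and 4.65 and 4.99 under GSK343. Read depth is unknown, and its part in these differences was not tested. The median fold of the set's peaks was 2.80 in WT DMSO against 2.48 in the whole list, and 3.07 against 2.96 in WT GSK343. In mutant DMSO it was 2.48 against 2.33, and in mutant GSK343 2.83 against 2.91. The set had 19 (WT) and 23 (mutant) distinct peaks under DMSO, and 8 and 9 under GSK343. When peaks below a fold of 3 were left out, Cd40, Pou2f2, S1pr2, Rag2 and Cd86 kept a peak in both DMSO lists, 9.80% of the set, against 22.3% (WT) and 24.3% (mutant) of all genes. For Cd86 it was the peak that held the start site of Casr, as the peak within Cd86 had a fold of 2.23. The peaks kept at Cd40 lay outside its body.

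The 37 genes with no peak in any list lay at a median of 42.8 kb from the nearest WT DMSO peak, with a range of 5.88 to 240 kb. In mutant DMSO the median was 37.3 kb, and under GSK343 the medians were 64.0 kb (WT) and 90.6 kb (mutant). Having no peak within 5 kb chose these genes, so their distances are a description. Over all 51 genes, those with a peak included, the median distance under DMSO was 28.2 kb (WT) and 27.4 kb (mutant). In WT DMSO 37 of the 51 were farther from a peak than the median of their 200 genes of like length, and in mutant DMSO 38 were. Under GSK343 the counts were 31 (WT) and 33 (mutant). Closest to a WT DMSO peak among the 37 genes with no peak were Blk (5.88 kb), Fcer2a (6.91 kb) and Cd72 (7.16 kb). The 3 farthest were Ptprc at 240 kb, Rel at 232 kb and Bank1 at 225 kb. Of the same 37, Nfkb1 differed most between the DMSO lists in relative terms, at 46.3 kb in WT and 6.82 kb in mutant cells. It was picked out after its values were seen.

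The low cover of the set held near the genes and not far from them. In WT DMSO peaks covered 2.24% of the gene bodies, 2.56% of the flanks within 5 kb and 5.93% of those at 5 to 10 kb, against 3.71%, 10.5% and 8.97% for all protein-coding genes. At 25 to 50 kb the values were 8.14% and 7.53%, and at 50 to 100 kb 11.2% and 7.13%. In mutant DMSO the set had 2.39% in the body, 4.28% within 5 kb and 16.1% at 50 to 100 kb, against 5.55%, 14.4% and 10.7%. The order was thus reversed at the longest distance in both DMSO lists. At 50 to 100 kb the median gene of the set had 6.73% of these flanks covered in WT DMSO, against 1.98% for the median protein-coding gene, and 42 of the 51 (82.4%) had some cover there, against 63.8% of all protein-coding genes. The highest was Spib with 70.7%, a gene with no peak in its own window. The median number of other protein-coding genes within 100 kb of either end was 4 in the set and 4 over all genes.

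**Figure D4:**
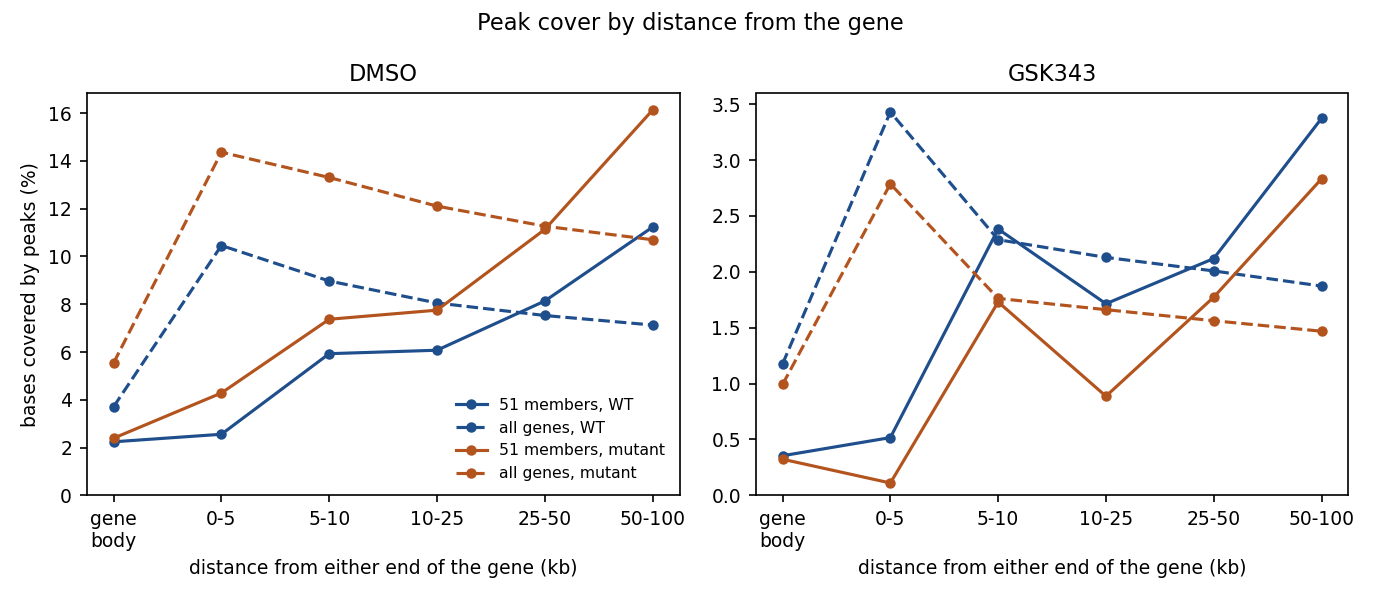
Percent of bases covered by peaks in gene bodies and in flanks up to 100 kb from either end, for the 51 genes (solid) and all protein-coding genes (dashed) in WT (blue) and mutant (orange) cells, under DMSO (left) and GSK343 (right, with its own scale). Under DMSO the solid lines start below the dashed ones and end above them at 50 to 100 kb.

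A further 65 genes of the B cell programme, listed apart from the set, gave similar counts. They too were chosen with earlier results of these data known, and no genes of like length were drawn for them. In WT DMSO 15 of 65 (23.1%) had a peak in the window and 7 in the body, and in mutant DMSO 18 and 9. The GSK343 counts were 6 and 2 in WT cells, and 5 and 1 in the mutant. Of all protein-coding genes, 43.5% (WT) and 48.9% (mutant) had a peak in the window under DMSO, and 26.3% and 24.4% under GSK343. In the body the shares were 31.8% and 34.6% under DMSO, and 21.4% and 20.3% under GSK343. Btk, Pax5, Ebf1, Bach2 and Foxo1 were among those with none in any list. The 7 with a peak in the body in WT DMSO were Cd5, Cd9, Foxp1, Jak3, Dntt, Il7r and Havcr1. Dntt, the terminal transferase of precursor cells, had 3.16% of its window covered in WT DMSO and 5.11% in mutant DMSO, and Il7r, the receptor for the precursor growth factor IL-7, had 6.21% and 8.58%; neither had a peak under GSK343. Vpreb2, Vpreb3 and Cd93, which are also known from early B cells, had no peak in any of the 4 lists. In WT DMSO the most covered was Jak3, the kinase of the common cytokine receptor chain, with 26.7%, against 27.8% in mutant DMSO and 12.7% (WT) and 11.6% (mutant) under GSK343. The body of Jak3 was 8.66% covered in WT DMSO and 10.1% in mutant DMSO. Under GSK343 it was 0% covered in both genotypes, so the cover there lay in the flanks. Nfkb2 had 26.6% of its window covered in WT DMSO and 37.5% in mutant DMSO, but 0% of its body.

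Marker genes of other lineages were set beside these. In WT DMSO 5 of 7 T cell genes had a peak, and peaks covered 28.9% of their windows. The counts were 3 of 6 for myeloid genes (13.0% covered), 3 of 4 for erythroid genes (28.3%) and 2 of 3 for plasma cell genes (12.7%). Of all protein-coding genes 43.5% had a peak in WT DMSO, and peaks covered 4.86% of their windows. The myeloid count was thus near the share of all genes. With the gene body alone the WT DMSO counts were 4 (T cell), 3 (myeloid), 2 (erythroid) and 2 (plasma cell), against 31.8% of all genes. Cd3d and Klf1 had peaks in their flanks only. Windows were summed without removing any overlap between neighbouring genes. The lists are short, and no genes of like length were drawn for them. Cd3e had 64.8% (WT) and 86.9% (mutant) of its window covered under DMSO, and 14.7% and 0% under GSK343. Cd8a, Lck, Csf1r, Itgam, Gata1 and Jchain had no peak in any list, so a gene of another lineage was not always marked.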

How the data were processed

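H3K27me3 ChIP-seq of splenic B cells was analysed from 4 deposited broad peak lists, 1 for each genotype and treatment, read from the prefix of the peak names. The peak names carry a folder name for pooled duplicates. The mutant prefixes end in 1, so whether those lists pool both replicates is not certain. Per the submitters' processing notes, the tools included Bowtie2 2.4.2, SAMtools 1.12, MACS2 2.2.7.1, bedtools 2.29.2 and deepTools 3.5.1, with the build mm10 (GRCm38); settings are not given in the sources used here. Peaks on a blacklist had been removed, per the file names. The fold of each peak (a ratio), its −log10 p-value and q-value and its integer score are the authors' deposited values; the score was not used. Peak positions, deposited by the authors with starts counted from 0, are given counted from 1.

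Genes came from RefSeq (GRCm38.p6) and start sites from a RefSeq promoter table. The 16 genes of the set with no entry there were Cd79b, Ms4a1, Cd74, Cd40, Cd83, Cd86, Cxcr5, Ccr7, Blk, Lyn, Ikzf3, Nfkb1, Relb, Ciita, H2-Ab1 and S1pr1. An overlap of 1 bp counted as a peak. The members and gene lists were chosen with earlier results of these data known. Every gene with a peak is named, with the 3 nearest to and 3 farthest from a WT DMSO peak among the others. Python 3.11.15, numpy 2.4.6, pandas 2.3.3 and matplotlib 3.10.9 were used. Covered lengths equalled those of bedtools 2.31.1 in 86524 of 86524 windows, and 2000 of 2000 windows on simulated data were recovered.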

Additional observations from a re-analysis of the deposited data

How the results depend on the processing

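Each of 12 results was recomputed under up to 10 settings, of which 2 (without Pou2f2, without the 4 precursor-stage genes) were chosen after seeing the data. Of 112 values, 78 stayed within 1.5 times the reported one, 33 moved further and 1 reversed. For single genes, restricting the window to the body moved 20 of 30 covered shares. No paired analysis was possible because the files give a single peak list per group, without replicate values, and for that reason no replicate was left out. Leaving out genes changes the set itself; otherwise the cause was not tested.

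The number of genes with a peak in WT DMSO (11) was 7 with the gene body alone, with 1 kb each side, with a q-value of at most 0.01, with peaks of at least 1 kb and without the precursor-stage genes. It was also 7 with the 10847 peaks of smallest p-value in each list. It was 6 when 5% of the window had to be covered or the −log10 p-value had to reach 5, and 5 when the fold had to reach 3. In mutant DMSO (12) it was 7 with the body alone, with 1 kb each side and when 5% had to be covered, 6 at the −log10 p-value limit or with equal numbers of peaks, and 5 at the fold limit. With 5% covered it was 2 in WT GSK343 and 1 in mutant GSK343.

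At the −log10 p-value limit the covered share was 1.21% in WT DMSO, and under GSK343 0.106% in WT and 0.170% in mutant cells. At the fold limit it was 1.15% in WT DMSO and 0.170% in mutant GSK343, where the q-value limit also gave 0.170%. Without Pou2f2 the DMSO shares were 0.814% in WT and 1.16% in mutant cells, and the GSK343 shares 0.144% and 0.0357%.

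The GSK343 to DMSO ratio of covered length was 0.0875 in WT at the −log10 p-value limit and 0.259 at the fold limit. In mutant cells it was 0.0683 at the q-value limit and 0.0307 without Pou2f2. The mutant to WT ratio at the −log10 p-value limit was 1.90 under DMSO and reversed to 1.60 under GSK343, where it was 0.247 without Pou2f2.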
